A study of Mus musculus with 16 samples.

Results

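The transcripts of 9 genes that encode lipases of the circulation and the proteins that control them were followed in mouse liver: the angiopoietin-like genes Angptl4, Angptl6 and Angptl8, the lipases Lpl and Lipc, the apolipoproteins Apoa5, Apoc2 and Apoc3, and the lipase maturation factor Lmf1. The genes were listed by name and function, with earlier results of these data known, and were looked up among the 51912 genes of the count table through their Ensembl identifiers. All 9 were found, and all 9 had enough reads to be among the 14920 genes tested.

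Lipoprotein lipase, the product of Lpl, sits on the capillary wall of muscle, heart and fat and releases fatty acids from the triglyceride of circulating lipoproteins; hepatic lipase, the product of Lipc, does related work in the liver sinusoid. ANGPTL4 inhibits lipoprotein lipase, ANGPTL8 is an insulin-responsive protein of liver and fat that acts in complex with other angiopoietin-like proteins, APOC2 is the cofactor the enzyme needs, APOC3 inhibits it and APOA5 favours its action. Fasting and feeding are known to move several of these genes in opposite directions, which shifts triglyceride between fat and muscle.

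Poly-A enriched RNA was sequenced from 16 livers of male mice in 4 groups of 4 libraries: control amino acid diet and fasted, low isoleucine diet and fasted, control diet and refed, and low isoleucine diet and refed. Isoleucine is a branched-chain essential amino acid. Both diets began at 10 weeks of age and ran for 3 weeks, so that the mice were 13 weeks old at harvest, and all were kept at about 22 °C. The fast lasted 16 h overnight, while neither the labels nor the series text state the strain or how long the mice were refed. The labels do not say in words that each library is a separate animal, so the p-values measure the spread between these libraries. The labels number the libraries by group, with 1, 2, 7 and 9 for the 4 groups, and what these numbers mark cannot be told apart from diet and feeding state. The diet comparison asks what restriction of isoleucine does in each feeding state, and the feeding comparison asks what refeeding does on each diet.

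Library totals ran from 24368656 to 34002955 counts. Levels are given as CPM, counts scaled to a common library size by the TMM method, with mean ± SD over n = 4 libraries. The tissue label held: the summed level of 6 hepatocyte markers lay between 65739.9 and 119912 CPM in every library, and 4 of 5 skeletal muscle markers had a median of 0. In bulk tissue, fewer cells of a type and less RNA per cell cannot be told apart. Library 4 of the control refed group stood apart, with the highest summed markers of stellate, Kupffer and endothelial cells of all 16 libraries. It and library 1 of the low isoleucine fasted group were also the 2 libraries in which each of 7 adipocyte markers was detected. Results that turn on either are given with and without it.

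Expression per kilobase of exon placed the 9 genes over a wide range in these livers. Apoc3 was highest at 908 CPM per kb averaged over the 16 libraries, followed by Apoa5 at 311 and Apoc2 at 254. Lipc stood at 65.0 CPM per kb, Angptl8 at 33.6 and Angptl4 at 27.9. Angptl6, whose product is a circulating protein named for its growth-promoting activity, stood at 2.40, Lpl at 1.58 and Lmf1 at 1.31 CPM per kb. The order of Angptl6, Lpl and Lmf1 depends on the length used. Their exons, merged over all annotated transcripts, came to 1582, 10478 and 13589 bases. Before division by length their means were 3.79, 16.5 and 17.8 CPM, the opposite order. The secreted apolipoproteins thus lay above the other members per exon length, and the order of Angptl4 and Angptl8 depended on feeding state, as given below.

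The starts of Angptl8 and Apoa5 are shown because these are the members with a promoter entry whose transcripts differed most between fasted and refed livers. Angptl8 lies on chromosome 9 at 21835510 to 21837347 on the plus strand, and Apoa5 on the same chromosome at 46268633 to 46271919, also on the plus strand (GENCODE M21, GRCm38). The 250 bases before each RefSeq start (GRCm38.p6) are written 5′ to 3′, at chr9:21835260-21835509 for Angptl8 and chr9:46268358-46268607 for the upstream one of the 2 starts listed for Apoa5, both on the plus strand. Capitals mark matches to the searched motifs:
Angptl8: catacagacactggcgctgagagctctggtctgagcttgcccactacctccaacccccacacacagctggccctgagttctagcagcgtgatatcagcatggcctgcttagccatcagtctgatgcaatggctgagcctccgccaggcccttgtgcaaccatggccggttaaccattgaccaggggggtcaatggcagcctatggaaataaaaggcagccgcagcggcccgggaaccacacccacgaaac
Apoa5: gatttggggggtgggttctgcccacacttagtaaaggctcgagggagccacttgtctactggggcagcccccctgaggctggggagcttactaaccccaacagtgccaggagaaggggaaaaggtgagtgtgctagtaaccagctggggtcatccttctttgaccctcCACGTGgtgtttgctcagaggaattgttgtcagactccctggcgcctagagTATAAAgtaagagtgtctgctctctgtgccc
Both strands were searched, from 250 bases before to 50 bases after each start, for CACGTG (an E-box, a site type bound by USF and carbohydrate-response factors), TATAAA (the TATA element), TGACGTCA (the cyclic AMP response element), TGTTTAC (a FOXO-type site) and the consensus direct repeat of type DR1 (the kind PPAR and HNF4 bind). Apoa5 held CACGTG with its first base 82 bases before this start and TATAAA 31 bases before it. Angptl8 held none of the 5 motifs in this window, and neither did the windows of Angptl6, Lipc, Apoc2 and Lmf1. Among 32851 promoters of the same length, 7.15% held CACGTG, 13.6% TATAAA, 1.79% TGACGTCA, 3.65% TGTTTAC and 0.0396% the exact DR1 consensus. A match describes letters only. Angptl4, Lpl and Apoc3 had no entry in the promoter table.

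Refeeding lowered Angptl4 and raised Angptl8 on both diets, by 7.98-fold to 12.3-fold, while the lipases themselves, Lpl and Lipc, did not pass the test. On the control diet 2 of the 9 genes were called by edgeR's quasi-likelihood test at an adjusted p under 0.05, against 17.1% of all genes tested, of which 8.91% were higher and 8.2% lower after refeeding. On the low isoleucine diet the same pair, Angptl4 and Angptl8, was called, against 21.4% of all genes, 9.6% higher and 11.8% lower. A share of 2 in 9 is near these backgrounds, so the count by itself says nothing particular about the set. The refeeding comparisons on the 2 diets share no libraries.

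Angptl4 encodes a secreted inhibitor of lipoprotein lipase and is a well-known target of PPAR-alpha, the fatty acid receptor of the fasting liver. In the control fasted livers it measured 176, 148, 179 and 214 CPM (179 ± 26.8), and in the control refed livers 30.8, 29.1, 14.2 and 16.0 CPM (22.5 ± 8.63). In the low isoleucine fasted livers it measured 120, 215, 217 and 164 CPM (179 ± 46.1), and in the low isoleucine refed livers 13.6, 14.4, 10.1 and 20.0 CPM (14.5 ± 4.10). Every fasted library was above every refed one, with the lowest fasted library at 120 CPM and the highest refed one at 30.8 CPM. The log2 fold change on refeeding was -3.00 (SE 0.280, adjusted p = 5.91e-06, edgeR), or 7.98-fold lower, on the control diet. On the low isoleucine diet it was -3.62 (SE 0.288, adjusted p = 6.91e-07, edgeR), or 12.3-fold lower. The groups did not overlap in either comparison, as was so for 19.1% of all genes with the control diet and for 24.6% with isoleucine restricted. Without the fourth control refed library the control-diet log2 fold change was -2.87, and without the first low isoleucine fasted library that of the other diet was -3.77.

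Angptl8 encodes a small secreted protein that lacks the fibrinogen-like domain of its relatives and rises with insulin and feeding. The control fasted livers held 7.32, 2.18, 0.622 and 11.0 CPM (5.27 ± 4.75), and the control refed livers 105, 31.9, 39.3 and 17.6 CPM (48.4 ± 38.8). The low isoleucine fasted livers held 1.65, 4.66, 8.40 and 10.8 CPM (6.38 ± 4.03), and the low isoleucine refed livers 64.5, 54.8, 28.9 and 76.0 CPM (56.1 ± 20.1). Here too every refed library lay above every fasted one, yet the libraries of a group spread far more than for Angptl4: the control fasted libraries alone ranged 17.6-fold, with 18 to 342 reads. The log2 fold change on refeeding was 3.19 (SE 0.774, adjusted p = 0.0120, edgeR), or 9.13-fold higher, on the control diet, and 3.13 (SE 0.766, adjusted p = 0.00998, edgeR), or 8.73-fold higher, on the low isoleucine diet. Its 95% interval on the control diet ran from 1.53 to 4.85, so the size is known less well than the direction.

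Per kilobase of exon, the order of the 2 genes was opposite in the 2 feeding states. Angptl4 was above Angptl8 in 8 of 8 fasted libraries, by 3.72-fold to 70.5-fold. Angptl8 was above Angptl4 in 8 of 8 refed libraries, by 4.49-fold to 19.4-fold. These folds depend on the merged exon lengths, 3541 bases for Angptl4 and 865 for Angptl8. In CPM the order was the same in every library, but it was close in libraries 2 and 4 of the control refed group. There Angptl8 stood at 31.9 and 17.6 CPM and Angptl4 at 29.1 and 16.0 CPM. Both diets showed the reversal, and the rise and the fall that make it up were each tested above.

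**Figure D1:**
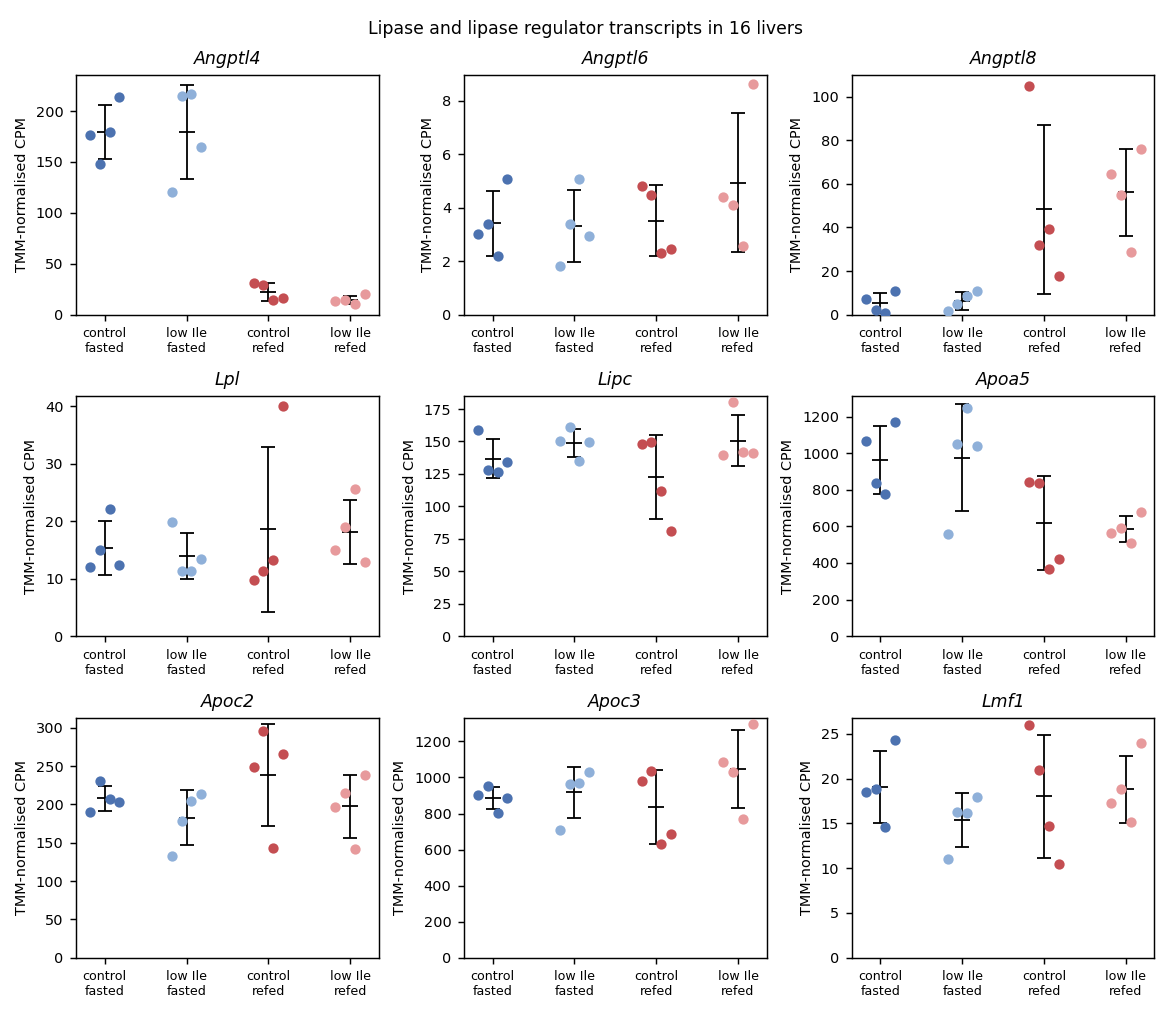
TMM-normalised CPM of each of the 9 genes (vertical axes, linear and starting at 0) in the 4 groups, with 1 point per library in the order of replicates 1 to 4, the mean as a short bar and ± SD as whiskers. Angptl4 points of fasted livers lie between 120 and 217 CPM and those of refed livers between 10.1 and 30.8 CPM, Angptl8 shows the opposite order, and 1 control refed library stands out for Lpl at 40.0 CPM.

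Angptl8 lies wholly within Dock6, a guanine nucleotide exchange factor gene on the opposite strand, with 0 exon bases shared. The library kit keeps strand, per the labels' protocols, but the strand setting used for counting is not stated. Dock6 itself rose on refeeding, from 8.15 ± 0.489 to 16.1 ± 2.79 CPM on the control diet (log2 fold change 0.98, adjusted p = 0.00284, edgeR) and from 9.38 ± 2.51 to 21.8 ± 5.66 CPM on low isoleucine (1.22, adjusted p = 0.000408, edgeR). The log2 fold changes of Angptl8 beside these were 3.19 and 3.13, and the part of Dock6 in the Angptl8 counts was not tested. Angptl6 shares 265 exon bases with A230050P20Rik on the opposite strand, and that gene rose as well, with log2 fold changes of 1.11 and 1.06 (adjusted p = 0.000266 and 0.000291, edgeR).

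Angptl6 itself did not pass in any comparison. Its levels were low, between 1.84 and 8.64 CPM over the 16 libraries, and the highest value belonged to library 4 of the low isoleucine refed group. The log2 fold change on refeeding was 0.04 on the control diet and 0.57 with isoleucine restricted, with 95% intervals of -0.78 to 0.85 and -0.23 to 1.37. Without library 4 of the low isoleucine refed group the latter was 0.15, and with any 1 library left out it ran from 0.15 to 0.85. Intervals of this width do not limit the change on the low isoleucine diet to under 2-fold. Of the other angiopoietin-like genes listed, 2 of 3 had enough reads to be tested (Angptl2 and Angptl7), and 0 of 2 passed in any comparison. The comparisons called 0% to 21.4% of all genes, so 0 of 2 says little about these genes.

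Apoa5 encodes a liver-made apolipoprotein of very low abundance in plasma that promotes triglyceride hydrolysis. Its control fasted livers measured 1067, 837, 776 and 1173 CPM (963 ± 187) and its control refed livers 842, 835, 367 and 424 CPM (617 ± 257). On the low isoleucine diet the fasted livers measured 561, 1053, 1248 and 1039 CPM (975 ± 292) and the refed livers 564, 589, 510 and 679 CPM (586 ± 70.5). In both diets the groups overlapped, since 2 control refed libraries lay within the fasted range and 1 low isoleucine fasted library lay within the refed range. The log2 fold change of -0.64 (SE 0.271) on the control diet and of -0.74 (SE 0.272) with isoleucine restricted did not pass (adjusted p = 0.122 and 0.0646, edgeR). Averaged over both diets, a contrast chosen after seeing the data, it passed at -0.69 (SE 0.192, adjusted p = 0.0107, edgeR), or 1.61-fold lower after refeeding, where 32.9% of all genes passed.

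The Apoa5 call on the low isoleucine diet depended on the method and on single libraries. It passed with DESeq2 (log2 fold change -0.73, adjusted p = 0.0363), which called 22.3% of all genes there, and with only the 2 groups in the edgeR fit (-0.75, adjusted p = 0.0280). It also passed in edgeR without library 1 of the low isoleucine fasted group (-0.93, adjusted p = 0.0176), without library 3 of the control refed group (adjusted p = 0.0421) and without library 4 of that group (adjusted p = 0.0462). Over the alternatives that kept every library and tested this diet by itself, its adjusted p ran from 0.0280 to 0.148. The contrast averaged over both diets, given above, is not a test of this diet. An antisense transcript, Gm47544, shares 524 exon bases with Apoa5; it fell from 126 ± 25.7 to 66.1 ± 9.28 CPM on the low isoleucine diet (log2 change -0.93, adjusted p = 0.00390, edgeR) and measured 138 ± 21.6 and 93.0 ± 29.4 CPM on the control diet (adjusted p = 0.0646). Its part in the Apoa5 counts was not tested.

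Apoc2 and Apoc3, the activator and the inhibitor of lipoprotein lipase among the C apolipoproteins, passed in no comparison. Apoc2 ranged from 133 to 296 CPM over the 16 libraries and Apoc3 from 631 to 1299 CPM, and groups overlapped in each comparison. On refeeding the log2 fold changes were 0.20 and 0.12 for Apoc2 on the control and then the restricted diet, and -0.09 and 0.19 for Apoc3. All 4 intervals stayed within a 2-fold change either way, the widest reaching 0.63. Apoc2 shares 646 exon bases with Gm44805 on the same strand, so that reads of the 2 could be split between them in counting; Gm44805 stood at 13.5 to 18.2 CPM as group means.

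Apoa5 and Apoc3 lie in 1 cluster of apolipoprotein genes on chromosome 9 with Apoa1 and Apoa4, and Apoc2 lies on chromosome 7 with Apoc1, Apoc4 and Apoe. Of these 5 neighbours 0 passed in any comparison by edgeR. The comparisons called 0% to 21.4% of all genes, so 0 of 5 says little about the neighbours. Their median log2 fold change on refeeding was -0.00 for the control diet and 0.20 with isoleucine restricted, beside 0.01 and 0.02 over all genes.

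Lipc, which encodes hepatic lipase, was among the steadiest of the 9 genes. It measured 137 ± 15.1 CPM in control fasted, 149 ± 10.9 in low isoleucine fasted, 123 ± 32.5 in control refed and 151 ± 19.7 CPM in low isoleucine refed livers. The groups overlapped, and the log2 fold changes on refeeding were -0.16 (95% interval -0.50 to 0.18) for the control diet and 0.01 (-0.32 to 0.35) with isoleucine restricted. Lmf1, whose product is needed in the endoplasmic reticulum for lipoprotein lipase and hepatic lipase to fold, stood between 10.4 and 26.0 CPM and differed by -0.08 and 0.29 on the log2 scale, neither passing.

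Lpl was scarce in liver, as is known for adult hepatocytes. The control fasted livers held 12.0, 15.05, 22.2 and 12.3 CPM (15.4 ± 4.73) and the control refed livers 9.73, 11.3, 13.3 and 40.0 CPM (18.6 ± 14.4). The low isoleucine fasted livers held 19.8, 11.3, 11.3 and 13.4 CPM (13.9 ± 4.02) and the low isoleucine refed livers 15.005, 19.0, 25.6 and 12.9 CPM (18.1 ± 5.56). A single control refed library, the fourth, was far above the rest. The log2 fold change on refeeding was 0.28 (SE 0.394, adjusted p = 0.707, edgeR) on the control diet with that library and -0.43 (SE 0.269, adjusted p = 0.292) without it. On the low isoleucine diet it was 0.38 (SE 0.395, adjusted p = 0.551).

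Low isoleucine called none of the 9 genes in either feeding state. By edgeR 0 of 9 passed in fasted livers, where 0.771% of all genes passed, and 0 of 9 in refed livers, where 0.174% passed. DESeq2 also called 0 of the 9 in each, beside 2.45% and 1.11% of all genes, and limma-voom 0 of the 9, beside 0.737% and 0.168%. The diet groups overlapped for all 9 genes, while they did not overlap for 8.07% of all genes in fasted and 4.44% in refed livers. At an unadjusted p under 0.05 by edgeR the count was 0 in fasted livers and 1 in refed livers, Angptl4. Of all 14920 genes tested, 1613 in fasted and 1456 in refed livers had such a p. The count by itself thus says little about the 9 genes. In fasted livers the log2 fold changes ran from -0.31 (Lmf1) to 0.28 (Angptl8), and in refed livers from -0.63 (Angptl4) to 0.49 (Angptl6). The Angptl6 value was 0.074 without library 4 of the low isoleucine refed group and ran from 0.074 to 0.70 with any 1 library left out.

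How far a diet difference can be limited varied by gene. In fasted livers the 95% interval stayed within a 2-fold change either way for 8 of 9 genes, with Angptl8 the exception (-1.33 to 1.89). In refed livers it did so for 6 of 9, the exceptions being Angptl4 (-1.19 to -0.07), Angptl6 (-0.31 to 1.29) and Angptl8 (-1.28 to 1.70). Angptl4 was at 179 CPM as a mean on either diet in fasted livers, a log2 fold change of -0.00 (95% interval -0.55 to 0.54). In refed livers it was 1.54-fold lower on the low isoleucine diet, with unadjusted p = 0.0308 and adjusted p = 0.457 by edgeR, and 2 of 4 low isoleucine libraries lay below all control ones. The authors' deposited table gives the same comparison a log2 fold change of -0.63 and an adjusted p of 0.519. Of the 9 genes, 0 had an adjusted p under 0.05 in the authors' deposited table for either feeding state. Of all 14211 genes given there, 91 in fasted and 39 in refed livers did, so 0 of 9 says little about the members.

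The difference of the refeeding change between the diets was tested directly as an interaction. By edgeR 0 of the 9 genes and 0 of all 14920 passed; 0 of the 9 and 928 of all genes had an unadjusted p under 0.05, limma-voom called 0 and DESeq2 called 36 genes (0.253%), 0 of them among the 9. For Angptl4 the interaction was -0.62 on the log2 scale (SE 0.369, 95% interval -1.41 to 0.16, adjusted p = 0.884). For Angptl8 it was -0.06 (SE 1.02, 95% interval -2.25 to 2.12), an interval too wide to show whether the diets differ.

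**Figure D2:**
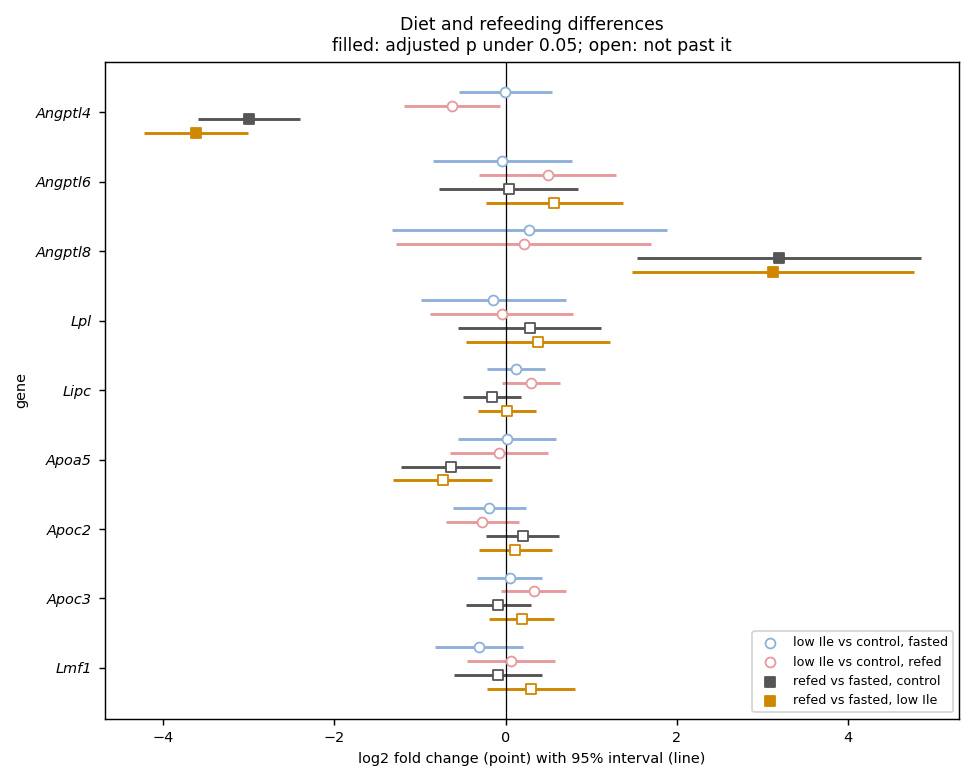
Log2 fold change (horizontal axis) of each gene in the 2 diet comparisons (circles) and the 2 refeeding comparisons (squares), with lines for the 95% interval, filled symbols for an adjusted p under 0.05 by edgeR and open symbols for the rest. The filled symbols are the refeeding changes of Angptl4, at -3.00 and -3.62, and of Angptl8, at 3.19 and 3.13.

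Genes of the pathways around these members were read in the same fit. Of 12 targets of PPAR-alpha, which the fasting liver uses to burn fatty acids, 0 rose and 8 fell on refeeding on the control diet, and 0 rose and 11 fell on the low isoleucine diet. Over all genes 8.91% rose and 8.2% fell on the control diet, and 9.6% and 11.8% on the other. The median log2 fold change of the 12 was -0.51 and -1.01, beside 0.01 and 0.02 over all genes. Pdk4, which shuts pyruvate out of oxidation, fell with log2 fold changes of -1.90 and -3.45 (adjusted p = 0.00706 and 7.85e-05, edgeR), and Plin2, a lipid droplet coat protein, with -1.10 and -1.86 (adjusted p = 0.000552 and 3.93e-06). Cpt1a, which admits fatty acids to mitochondria, fell with log2 fold changes of -1.12 and -1.54 (adjusted p = 9.18e-05 and 3.01e-06, edgeR). In fasted livers 2 of the 12 were higher on low isoleucine, where 0.771% of all genes passed in either direction. They were Ehhadh by 1.41 and Cyp4a14 by 0.79 (adjusted p = 0.0235 and 0.0252, edgeR). Both are enzymes of fatty acid oxidation outside mitochondria, while Angptl4 did not pass. The median diet difference of the 12 was 0.59 in fasted livers, beside 0.01 over all genes. In refed livers 0 of the 12 passed, beside 0.174% of all genes, with a median of 0.18 beside -0.01.

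Of 11 genes that respond to insulin and carbohydrate, 5 rose and 3 fell on refeeding on the control diet, and 6 rose and 3 fell on the low isoleucine diet, beside 8.91% and 8.2%, and 9.6% and 11.8%, of all genes. Their median log2 fold change was 0.58 and 0.72, beside 0.01 and 0.02 over all genes. Acly, which makes acetyl-CoA for lipid synthesis, rose by 1.28 and 1.29 on the log2 scale (adjusted p = 6.58e-05 and 3.44e-05, edgeR), and Fasn, the fatty acid synthase, by 2.58 and 2.44 (adjusted p = 0.00185 and 0.00193). Pck1, an enzyme of glucose production, fell with log2 fold changes of -1.99 and -1.86 (adjusted p = 0.00146 and 0.00177). Scd1, a fatty acid desaturase that insulin is known to raise, fell by 1.74 on that scale on the low isoleucine diet (adjusted p = 0.0382).

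Among 12 transcription factors described as acting on lipase and apolipoprotein genes, 1 rose and 4 fell on refeeding on the control diet, and 2 rose and 6 fell on the low isoleucine diet, where 17.1% and 21.4% of all genes were called in either direction. Their median log2 fold change was -0.19 and -0.25. Ppara, the gene of PPAR-alpha itself, fell from 127 ± 30.6 to 51.0 ± 10.6 CPM on the control diet and from 131 ± 28.8 to 38.3 ± 7.68 CPM on the low isoleucine diet (log2 fold changes -1.31 and -1.77, adjusted p = 0.000386 and 2.27e-05, edgeR). Srebf1, an insulin-driven activator of lipid synthesis, rose by 1.80 and 2.21 (adjusted p = 0.00372 and 0.000766). Creb3l3, which encodes a liver factor that acts on Apoa5 and Apoc2 in mice, fell with log2 fold changes of -0.68 and -0.80 (adjusted p = 0.0321 and 0.0110). Rxra and Foxo1 fell on both diets, Hnf4a and Rora fell on the low isoleucine diet, and Nr1h3 rose there.

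**Figure D3:**
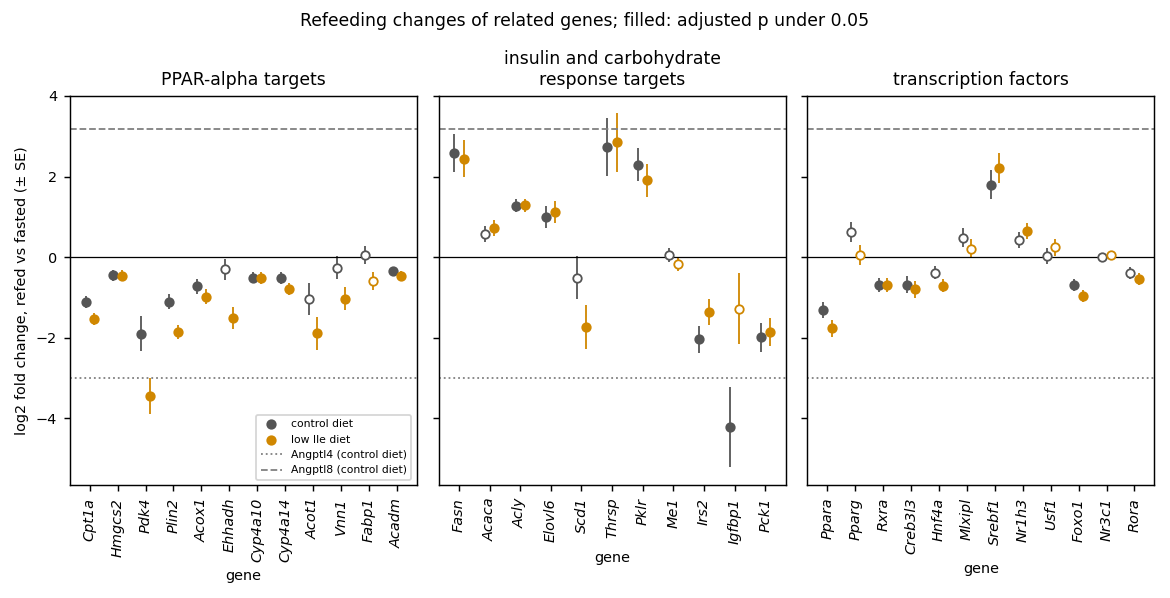
Log2 fold change of refed against fasted livers (vertical axis, ± SE) for 12 PPAR-alpha targets, 11 insulin and carbohydrate response targets and 12 transcription factors, with grey points for the control diet and orange points for the low isoleucine diet, filled where the adjusted p was under 0.05 by edgeR. Grey lines mark Angptl4 (dotted, -3.00) and Angptl8 (dashed, 3.19) on the control diet; of the PPAR-alpha targets 8 and 11 fell and 0 rose.

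Of 6 other lipases, most of them intracellular, 1 rose and 2 fell on the control diet, and 0 rose and 3 fell on the low isoleucine diet, where 8.91% of all genes rose and 8.2% fell, and 9.6% rose and 11.8% fell. Their median log2 fold change was -0.25 and -0.67. Pnpla2, the adipose triglyceride lipase, fell by 1.08 on the log2 scale on either diet (adjusted p = 0.00800 and 0.00614, edgeR), and Lipe, the hormone-sensitive lipase, was 2.01-fold and 1.57-fold lower (adjusted p = 0.000955 and 0.0131). Pnpla3, a relative of Pnpla2, rose by 2.81 on the log2 scale on the control diet from a mean of 0.382 CPM (adjusted p = 0.00293), and Lipa, the lysosomal acid lipase, fell by 0.82 on the low isoleucine diet (adjusted p = 0.000756).

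Partners of the secreted lipases formed the last lists. Of 6 genes for lipase folding and for the proteases that cleave lipases and angiopoietin-like proteins, 0 passed in any comparison. The comparisons called 0% (interaction) to 21.4% (refeeding, low isoleucine) of all genes, so 0 of 6 says little about the list. Of 6 genes for lipoprotein uptake and lipase anchoring, Vldlr, the receptor for very low density lipoprotein, was higher on low isoleucine in fasted and in refed livers (log2 fold changes 2.15 and 2.62, adjusted p = 0.0143 and 0.00487, edgeR). Vldlr also rose on refeeding on the low isoleucine diet, by 0.99 (adjusted p = 0.0321). Gpihbp1, which holds lipoprotein lipase on the capillary wall, did not pass, with group means of 9.61 to 13.5 CPM.

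The members differed in how much libraries of 1 group varied. The SD within groups, on the log2 scale, was 1.24 for Angptl8, 0.59 for Angptl6, 0.58 for Lpl, 0.44 for Apoa5 and 0.42 for Angptl4, beside a median of 0.28 over all genes tested. It was 0.39 for Lmf1, 0.33 for Apoc2, 0.27 for Apoc3 and 0.24 for Lipc. Apoc3 and Lipc were therefore the members whose libraries varied no more than the median gene.

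For members other than Lpl, the deviations from group means correlated positively in 28 of 28 pairs, to different degrees. Single libraries could still be mixed. In the second control fasted library Angptl4 deviated by -0.26 and Apoc3 by 0.11. Over the 16 libraries, which share their RNA preparation between genes, the Pearson correlation of these deviations was 0.90 for Angptl4 with Apoa5, 0.87 for Angptl4 with Angptl6 and 0.86 for Angptl4 with Apoc3. Apoc2 with Apoc3 gave 0.82. The weakest were Lipc with Apoc2 at 0.081, Angptl8 with Apoc2 at 0.24 and Angptl6 with Lipc at 0.27. Lpl deviated the other way, with a correlation of -0.88 with Lmf1, -0.73 with Angptl8 and -0.68 with Angptl4, and with Lipc of -0.68, or -0.23 without the fourth control refed library. Correlations of this size were not confined to the members. Of the other 14919 genes 6.03% had a correlation over 0.8 with Angptl4, and the median absolute correlation of Angptl4 with them was 0.42. Over the 36 pairs of members the median absolute correlation was 0.69. The median of a member with all other genes ran from 0.34 (Lipc) to 0.45 (Lmf1). These are descriptions of the same 16 libraries, in which group means were removed first.

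**Figure D4:**
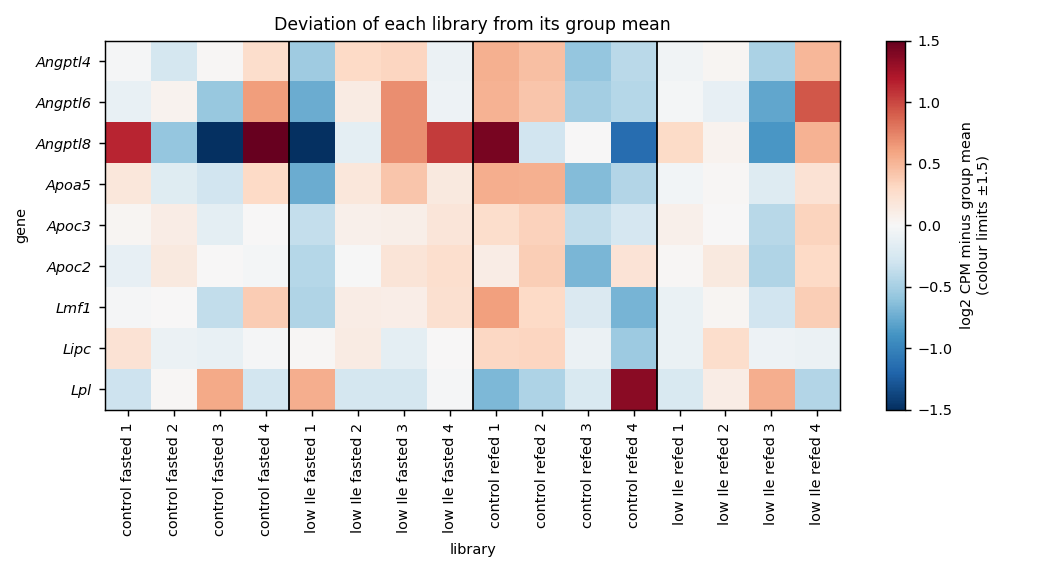
Deviation of log2 CPM from the group mean for each gene (rows) in each of the 16 libraries (columns), red above and blue below the mean, with colour limits of ±1.5 and black lines between groups. In the fourth control refed library Lpl is 1.36 above and Angptl4 0.41 below its group mean, while Apoc2 is 0.21 above. Some libraries show mixed colours in the upper rows. In the third control refed library Lpl and Angptl4 both lie below, by 0.23 and 0.58.

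Several members varied with the summed markers of another liver cell type, Lpl in the same direction and others in the opposite one. Lpl deviations correlated at 0.96 with those of the summed level of 6 stellate cell markers (Lrat, Des, Reln, Dcn, Col1a1 and Col3a1), and at 0.88 without the fourth control refed library. Dcn was the largest single part of this sum, at 110 to 318 CPM, while Des and Col1a1 had medians of 2.48 and 2.68 CPM. Against the same stellate sum Lmf1 gave -0.85 (-0.78 without that library), Angptl8 -0.68 (-0.79) and Angptl6 -0.58 (-0.69). Apoc3 gave -0.60 (-0.63), Apoa5 -0.56 (-0.53) and Angptl4 -0.55 (-0.52). Lipc moved from -0.66 to -0.11 without that library, and Apoc2 from -0.05 to -0.39. With 6 endothelial markers the correlation of Lpl was 0.68, and 0.33 without that library, and with 7 Kupffer cell markers 0.53 and 0.21. With 7 adipocyte markers it was -0.11, and 0.15 without that library. In the fourth control refed library the stellate sum was 486 CPM, against 178 to 378 CPM in the other 15. All 6 stellate markers were detected in every library; the group ranges of their sum were 256 to 378 CPM in control fasted, 221 to 325 in low isoleucine fasted, 178 to 486 in control refed and 201 to 300 CPM in low isoleucine refed livers. Their part in the levels of these members was not tested.

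**Figure D5:**
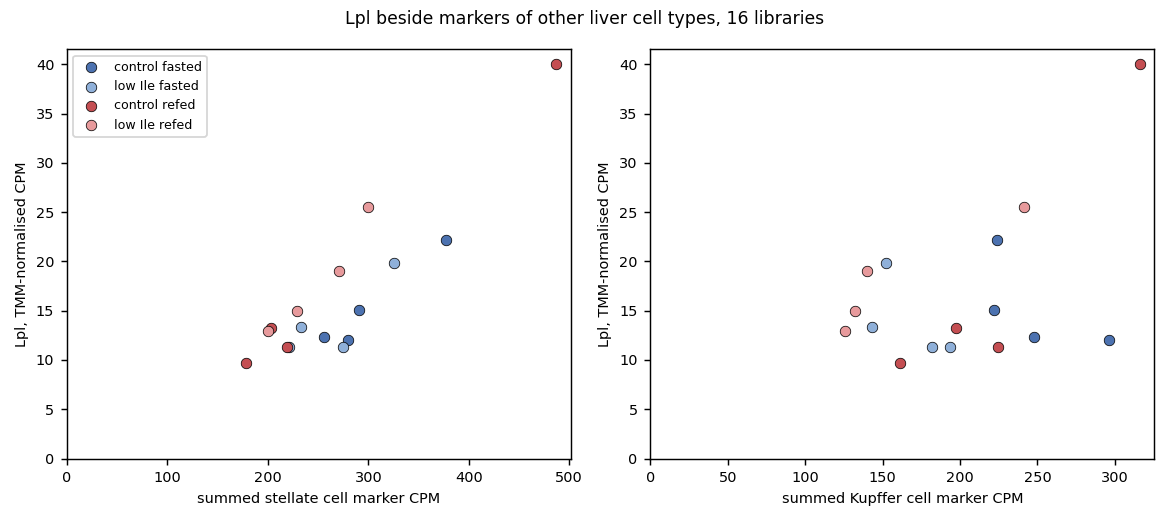
Lpl CPM (vertical axes) against the summed CPM of stellate cell markers (left) and Kupffer cell markers (right) in the 16 libraries, coloured by group. The fourth control refed library lies alone at the upper right of both panels, with Lpl at 40.0 CPM, a stellate sum of 486 CPM and a Kupffer sum of 316 CPM.

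Adipocyte markers bear on Angptl8 and Angptl4, which fat also expresses. The defining markers were at or near 0 in most libraries: Adipoq had a median of 0.0300 CPM and was at 0 in 6 libraries, Plin1 was at 0 in 13, Lep in 14 and Retn in 12. The summed level of the 7 listed markers nevertheless ran from 234 to 1262 CPM in fasted and from 1874 to 3738 CPM in refed livers, and nearly all of it was Car3, at 181 to 3723 CPM, which liver also expresses. Of the rest, Cidec reached 53.0 CPM and Cfd 1.85 CPM. Adipoq was highest in library 1 of the low isoleucine fasted group at 2.39 CPM, where Plin1 stood at 0.808 CPM and the sum at 689 CPM against 234 to 317 CPM in the rest of its group. In library 4 of the control refed group Adipoq stood at 0.595 and Plin1 at 0.397 CPM. Without the former library the refeeding log2 fold change on the low isoleucine diet was -3.77 for Angptl4, 2.81 for Angptl8 and -0.93 for Apoa5, the last of which then passed; the part of these markers was not tested.

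The genes whose profile over the 16 libraries was most like that of Angptl4, by Pearson correlation of log2 CPM among 10983 genes, were Lpin2 (0.987), Brap (0.985), Lgals4 (0.984), Calcoco1 (0.980) and Slc8b1 (0.977). Lpin2, a phosphatidate phosphatase gene, had group means of 571 and 528 CPM in fasted and 116 and 79.5 CPM in refed livers. For Angptl8 they were Entr1 (0.968), Hdhd3 (0.953), Rbm19 (0.951), Tmem150a (0.950) and Rusc1 (0.949). For Lpl, which did not follow the groups, they were Acot9 (0.918), Thbs2 (0.901), Sparcl1 (0.880), Cavin1 (0.874) and Ccdc80 (0.869). With group means removed the leading gene of each kept a correlation of 0.81 (Lpin2), 0.88 (Entr1) and 0.92 (Acot9).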

How the data were processed

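Poly-A enriched, stranded libraries of 16 livers were sequenced over several lanes that were merged per sample, per the labels' protocols. The authors deposited RSEM expected counts per gene; 10.2% of the values were not whole. Per the file headers, 2 deposited tables, 1 per feeding state, hold the authors' log2 fold changes and log2 CPM, their F scores and their p-values. The labels and headers state no aligner, genome build, annotation, strand setting or filter. Tools named in the submitters' processing notes are R 3.5.3, edgeR and limma.

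The rounded counts were fitted with edgeR 4.0.16 under R 4.3.3 (filterByExpr, minimum count 10 and minimum total 15; TMM; robust quasi-likelihood F test, 1 mean per group, all 16 libraries). P-values were adjusted by Benjamini-Hochberg over 14920 genes, with a threshold of 0.05. Standard errors were obtained from F, as the size of the log2 change over the root of F. Levels are CPM with mean and SD. Symbols were matched for 51633 of 51912 identifiers. Positions and merged exon lengths come from GENCODE M21, whose relation to the counts is not stated. Promoters come from RefSeq, with 6 of the 9 genes matched. Alternatives were DESeq2 size factors, library size alone, no filter, DESeq2 1.42.0, limma-voom (limma 3.58.1), only the groups compared, a replicate block, leaving out each library, and, added after seeing the data, averaging over the other factor. The method was tested on simulated data. No 2 libraries of a group agreed within sampling noise.

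The 9 genes and the lists were chosen with earlier results of these data known. Named genes were the 9 members, the list genes past the threshold (up to 4 per list and direction, smallest p; not every one is given, and some list genes are not reported here) and the 5 genes of most similar profile to Angptl4, Angptl8 and Lpl. The fourth control refed library, Dock6, A230050P20Rik, Gm47544, Gm44805 and Gpihbp1 were singled out after their values were seen.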

Additional observations from a re-analysis of the deposited data

Results flagged for a closer look

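Each of the 9 genes was looked at in each of the 4 groups, 36 sets of 4 libraries, for a library whose gap to its nearest neighbour exceeded Dixon's critical value as a share of the group's range. Chance gives about 1 in 20 such sets. Of the 36 sets 2 were found this way, which is near that share, so their number says nothing particular about these genes. Lpl in library 4 of the control refed group stood at 40.0 CPM, with the nearest library at 13.3 CPM and a gap of 0.882 of the range. The summed markers of stellate, Kupffer and endothelial cells were highest in that library as well, though many single markers were not. Of the stellate markers Lrat, Dcn, Col1a1 and Col3a1 were highest there. Des stood there at 2.46 CPM against a highest value of 3.99 CPM, and Reln at 46.6 against 62.6 CPM. Vsig4, Cd5l and Adgre1 were highest there among Kupffer cell markers, while Clec4f (93.0 against 101 CPM), Timd4, Marco and C1qa were not. Among endothelial markers Pecam1 and Lyve1 were highest there, while Stab2, Clec4g, Kdr and Oit3 were not. The part of these markers in the Lpl value was not tested. Lipc in library 2 of the low isoleucine refed group stood at 180.1 CPM, with the nearest library at 142 CPM and a gap of 0.945 of the range; the other 3 libraries lay between 139 and 142 CPM.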

How the results depend on the processing

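The calls among the 9 genes were 0 in both diet comparisons and in the interaction under every alternative run. Angptl4 and Angptl8 passed in both refeeding comparisons under every alternative, Angptl4 at log2 fold changes of -3.18 to -2.83 and -3.81 to -3.48 and Angptl8 at 2.48 to 3.84 and 2.81 to 3.501 with 1 library left out; the highest adjusted p of Angptl8 was 0.0406 and 0.0335. A further call, Apoa5, was added by the settings named with it. Of 1062 alternative values of single genes, 983 kept direction and call, 7 passed newly (all Apoa5) and 72 changed sign. In these totals a contrast averaged over the other factor was entered under each comparison that it averages. No value that had passed changed sign. The counts over all genes moved more. In fasted livers the diet count was 115, and 361 with DESeq2, 193 with only the groups compared, 226 averaged over feeding state, and 6 (without library 4 of the control fasted group) to 222 (without library 4 of the control refed group); leaving out any of the 8 fasted libraries, that refed one or library 1 of the low isoleucine refed group moved it by over 1.5 times. In refed livers it was 26, and 176, 3, 226 and 3 (without library 1 of the low isoleucine refed group) to 89 (without library 4 of the control refed group); libraries 3 and 4 of the control refed group and 1, 2 and 4 of the low isoleucine refed group each moved it that far. The refeeding count averaged over diets was 4915, and the interaction gave 36 with DESeq2 and 0 to 1 with a library left out. The cause was not tested. The fewest reads behind a value of the 9 genes were 18, for Angptl8 in 1 library; the part of depth was not tested.

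Where every library was kept, the values that changed sign lay between -0.12 and 0.23. For the diet difference in fasted livers, Angptl4 was 0.0036 with DESeq2 size factors, 0.023 with library size alone, 0.00027 without the filter and 0.0052 with DESeq2; Angptl6 was 0.23 averaged over feeding states; Apoa5 was -0.024 with limma-voom and -0.029 averaged. In refed livers limma-voom gave Lpl 0.11 and Apoa5 0.016, and averaging gave Lmf1 -0.12. On refeeding on the control diet, Apoc3 and Lmf1 were 0.025 and 0.013 with library size alone and 0.051 and 0.10 averaged over diets; library size alone moved the median of all genes to 0.14 and 0.13 in the refeeding comparisons. Lipc on the low isoleucine diet was -0.072 averaged, and the Apoa5 interaction was 0.040 with limma-voom.

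With 1 library left out, signs changed within these ranges. Diet, fasted: Angptl4 -0.11 to 0.15, Angptl6 -0.33 to 0.22, Angptl8 -0.097 to 0.93, Apoa5 -0.12 to 0.21, Apoc3 -0.011 to 0.16 and Lpl -0.36 to 0.087. Diet, refed: Angptl8 -0.081 to 0.93, Apoa5 -0.26 to 0.11, Lmf1 -0.14 to 0.30 and Lpl -0.26 to 0.65. Refeeding, control: Angptl6 -0.15 to 0.29, Apoc3 -0.21 to 0.025, Lmf1 -0.31 to 0.10 and Lpl -0.43 to 0.51. Refeeding, low isoleucine: Apoc2 -0.0090 to 0.25 and Lipc -0.083 to 0.054. Interaction: Angptl8 -0.72 to 0.65, Apoa5 -0.28 to 0.095, Apoc2 -0.26 to 0.049 and Lpl -0.13 to 0.80.

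The marks RL, R, L and N recur in every group, and the labels do not say what they stand for. Deviations of same-mark libraries correlated at -0.32 to 0.32, over 0.1 in 8 of 24 pairs. Such values cannot show whether same-mark libraries share anything beyond the mark. With the mark as a replicate block the calls were again 0 and 0 by diet, 2 and 2 by refeeding and 0 for the interaction; Angptl4 gave -3.02 and -3.64 and Angptl8 3.42 and 3.02 on refeeding. Signs turned for Angptl4 (0.00035) and Angptl6 (0.044) by diet in fasted livers and for Lpl (0.053) in refed livers.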
